A study of Mus musculus with 5 samples.

Results

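The 9 genes described here, out of 32285 genes in the files, were listed as inhibitory receptors and ligands of the immune system. Cd274, Vsir, Lgals9 and Lgals3bp stand on the ligand side, and Lag3, Havcr2, Lilrb4a, Cd33 and Klra2 on the receptor side. Lgals3bp is listed with the ligands as a galectin-binding protein. The 9 genes were taken as a list of gene symbols for what their proteins do, with earlier results of these data known. Their levels were followed by class of nuclei and between genotypes. Inhibitory receptors restrain immune cells. Many carry in their cytoplasmic tail a tyrosine motif, the immunoreceptor tyrosine-based inhibitory motif (ITIM), which recruits phosphatases when the receptor meets its ligand. The checkpoint receptors PD-1, LAG-3 and TIM-3 are best known for damping T cells, and their ligands sit on antigen-presenting and myeloid cells. Microglia, the resident macrophages of the brain, express several of these genes in health, and type I interferon is a known inducer of some of them, among them the PD-1 ligand PD-L1.

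Single-nucleus RNA-seq (snRNA-seq) was performed on nuclei of mouse brain, labelled as hippocampus, that had been sorted as negative for NeuN, a protein of neuronal nuclei, and for Olig2, a protein of the oligodendrocyte lineage. The 5 libraries came from 1 mouse each. In 2 mice (R241E) the Tmem119-creERT2 driver was combined with 1 R241E allele and 1 wild-type allele of Cgas, and in 3 mice (WT) the driver was combined with wild-type Cgas. All were young adults given tamoxifen, per the study's methods, and the study describes the induced allele as mainly limited to microglia and brain macrophages. cGAS is a DNA sensor upstream of STING and type I interferon. The R241E change loosens its hold on nucleosomes, which keep the enzyme silent. The genotype of the controls is given in 2 ways by the study, heterozygous in its results but wild type in its methods and the sample titles, which were followed here. A text on H151 and DMSO goes with every sample, but no sample is assigned to either, so treatment was not used. Replicates are separate mice. The p-values of the edgeR fits compare these few mice with a variance estimate that draws on many genes. They thus do not measure the spread of a single gene between mice alone.

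The libraries held 1381 to 2490 nuclei and 4183709 to 10130667 unique molecular identifiers (UMIs, 1 per captured RNA molecule), and 9505 of 9748 nuclei passed the filters. Any pair of libraries shared at most 2 cell barcodes. Nuclei fell into 27 clusters, which were named from marker genes and whose names are short for "like" that class. Of these nuclei, 5379 were microglia (1006 and 524 in R241E, 926, 1471 and 1452 in WT) and 342 were border-associated macrophages, the macrophages of meninges and vessels. All 10 microglial markers were detected in the microglia, summing to 7838 to 9190 CPM (a gene's UMIs scaled to a common total for all UMIs of its class in a library). A cluster of 177 nuclei led by Cd74, Igkc, H2-Aa and Lyz2 was left unnamed. Classes that the sort was meant to remove were present, with 745 neuronal and 651 oligodendrocyte nuclei among those kept. A lower summed level can mean fewer nuclei with the transcript or less transcript per nucleus, which is why shares of nuclei are given further on.

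Promoter sequence was examined for the members because the interferon-stimulated response element (ISRE) and the gamma-activated site (GAS) are the classical interferon-responsive DNA elements. RefSeq's promoter table (GRCm38.p6, the mm10 build of the files; 250 bases before to 50 after each start) held 7 of the 9 members. The ISRE core was searched as GAAA NN GAAA on both strands, and GAS as TTC NNN GAA, which reads alike on both strands. The ISRE core was found in Lgals9 alone of the 7, at 55 to 46 bases before the start and again inside the first 50 transcribed bases, and GAS in Klra2 alone, at 190 to 182 bases before the start. Of all 32851 windows in the table, 3.44% held the ISRE core and 8.30% held GAS. The 250 bases before the start are shown for the 3 members that rose in R241E microglia and have an entry, with the ISRE core in capitals. The table holds 1 start per gene, and for Cd274, Cd33 and Klra2 its window lies inside the gene interval given further on, so that it precedes an internal start and not the outermost one. The windows of Cd274 and Lgals3bp held neither motif in these letters, from which nothing follows about the factors or about other starts.
Lgals9, chr11:78984925-78985174, minus strand: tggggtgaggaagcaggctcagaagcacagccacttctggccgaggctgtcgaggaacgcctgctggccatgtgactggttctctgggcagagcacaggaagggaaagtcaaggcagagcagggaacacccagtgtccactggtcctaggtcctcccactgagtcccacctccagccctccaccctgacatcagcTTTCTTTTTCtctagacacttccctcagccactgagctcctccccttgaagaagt
Lgals3bp, chr11:118401960-118402209, minus strand: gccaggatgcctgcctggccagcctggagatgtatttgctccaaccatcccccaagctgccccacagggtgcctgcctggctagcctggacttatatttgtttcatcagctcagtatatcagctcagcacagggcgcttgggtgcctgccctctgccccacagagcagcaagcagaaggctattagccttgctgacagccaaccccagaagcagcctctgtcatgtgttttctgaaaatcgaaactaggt
Cd274, chr19:29367188-29367437, plus strand: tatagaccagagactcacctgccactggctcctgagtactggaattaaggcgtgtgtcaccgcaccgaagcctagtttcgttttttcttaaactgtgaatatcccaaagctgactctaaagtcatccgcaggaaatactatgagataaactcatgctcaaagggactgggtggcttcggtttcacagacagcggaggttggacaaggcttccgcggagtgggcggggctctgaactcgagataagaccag

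The members differed first in where they were read. Havcr2, Cd33, Vsir, Lag3 and Lgals9 were read mostly in microglia, with 94.8%, 92.2%, 91.5%, 90.4% and 86.4% of all their UMIs there. Microglia were 5379 of the 9505 nuclei kept, so these shares follow class size as well. Of 1886 Lilrb4a UMIs, the border-associated macrophages held 45.3% and microglia 29.6%. Per UMI of the class, Lilrb4a was highest in the 28 monocytes or neutrophils, at 1115 to 2852 CPM in the 4 libraries where it was seen there. Vsir was at 631 to 1463 CPM in these nuclei of the same 4 libraries, from 3 to 17 UMIs each, against 272 to 392 CPM in microglia. In R241E, Lgals9 was at 126 and 197 CPM in border-associated macrophages, against 204 and 192 CPM in microglia. Klra2 was nearly silent in microglia, at 6 UMIs in all 5379 nuclei, and 69.4% of its 340 UMIs lay in the unnamed cluster led by Cd74. Cd274 and Lgals3bp were spread more widely: 47.0% of 647 Cd274 UMIs came from microglia and 28.9% from neurons, and 60.4% of 714 Lgals3bp UMIs came from microglia. Classes were built from the same counts, so these levels are a description and carry no test.

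**Figure D1:**
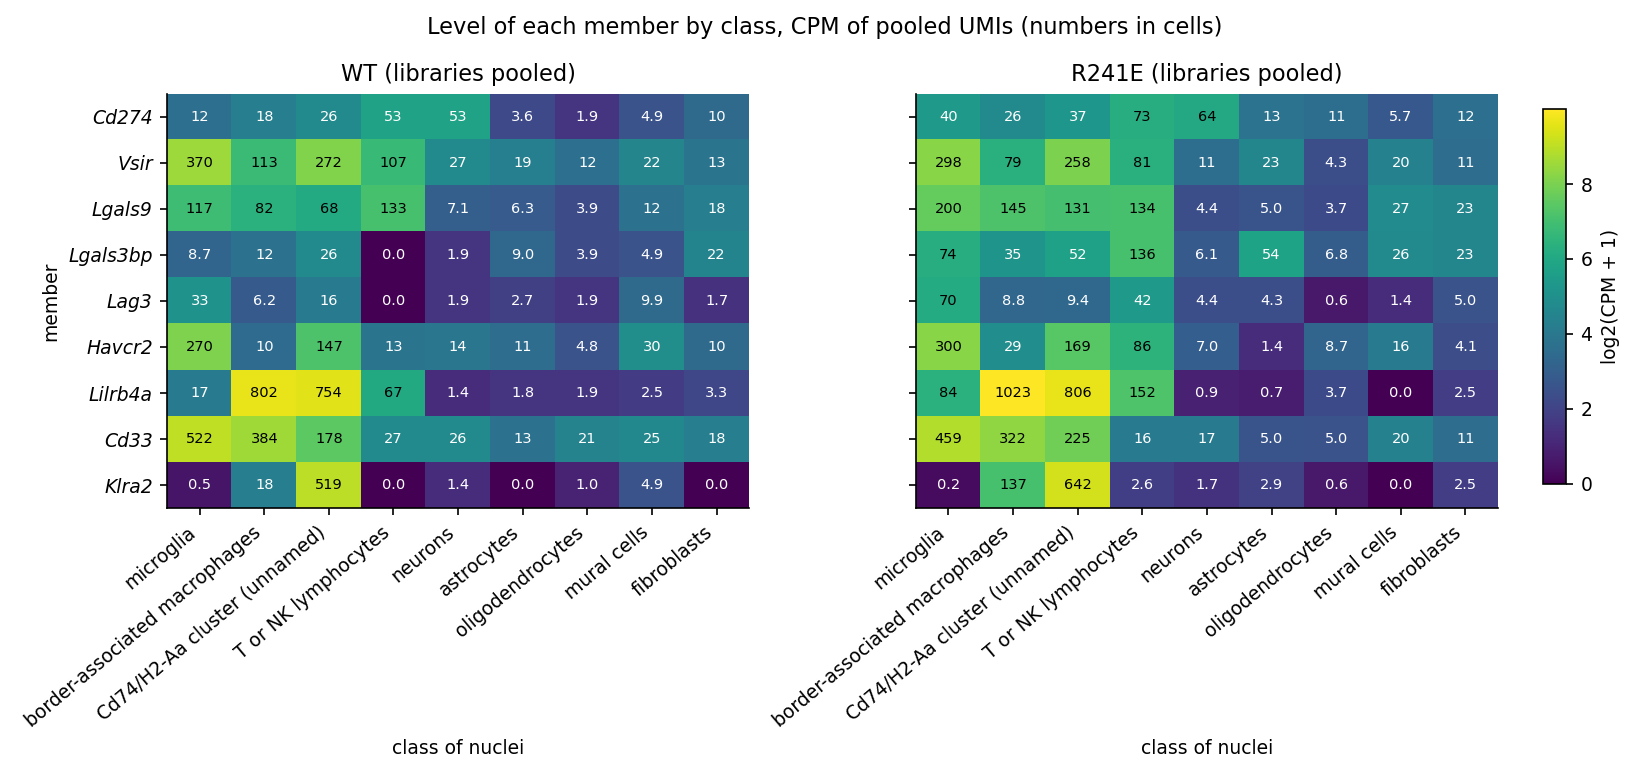
Level of the 9 members (rows) in 9 classes of nuclei (columns), as CPM of the UMIs pooled over the 3 WT libraries (left) and the 2 R241E libraries (right), with colour on a log2(CPM + 1) scale and CPM written in each cell. Among the classes shown, Havcr2, Vsir and Cd33 stand highest in microglia, Lilrb4a in border-associated macrophages and Klra2 in the unnamed cluster.

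Among the 7 classes large enough to test (20 nuclei or more per library), Havcr2, the TIM-3 receptor, was at 262 to 291 CPM in WT microglia and at most 47.8 CPM in any WT library of the other classes, a value from mural cells. Cd33, a sialic acid-binding receptor (Siglec) with inhibitory signalling in myeloid cells, stood at 475 to 553 CPM in WT microglia and at 333 to 420 CPM in WT border-associated macrophages, so the 2 ranges did not overlap. Vsir, which encodes VISTA of the B7 family, was at 319 to 392 CPM in WT microglia and 65.3 to 138 CPM in WT border-associated macrophages. Lgals9 (galectin-9) was at 114 to 125 CPM against 65.3 to 107 CPM, again apart. The levels of these 4 genes in neurons, astrocytes, oligodendrocytes, mural cells and fibroblasts reached at most 65.0 CPM in any WT library. The order was reversed for Lilrb4a, at 12.5 to 28.3 CPM in WT microglia and 621 to 903 CPM in WT border-associated macrophages. Its level in the unnamed cluster, 687 to 802 CPM, overlapped that of the border-associated macrophages.

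In microglia, 5 of the 8 members that passed the filter on low counts were higher in R241E than in WT, and none was lower (edgeR quasi-likelihood test, adjusted p under 0.05). They were Lgals3bp, Lilrb4a, Cd274, Lag3 and Lgals9. Among all 12728 genes tested in microglia, 9.29% were called and 6.04% were called higher in R241E, and 37.9% had CPM that did not overlap between genotypes. Because the members were chosen with earlier results of these data known, the shares are set side by side as a description. The median log2 fold change was 0.92 over the 8 members and close to 0 (-0.0048) over all genes. Havcr2, Vsir and Cd33 were not called, and Klra2 was too low to test. The microglia compared lay in different clusters: 55.6% to 87.6% of WT microglia were in cluster 0, against 2.78% and 9.54% of R241E microglia, which were mostly in clusters 2, 5 and 8.

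**Figure D2:**
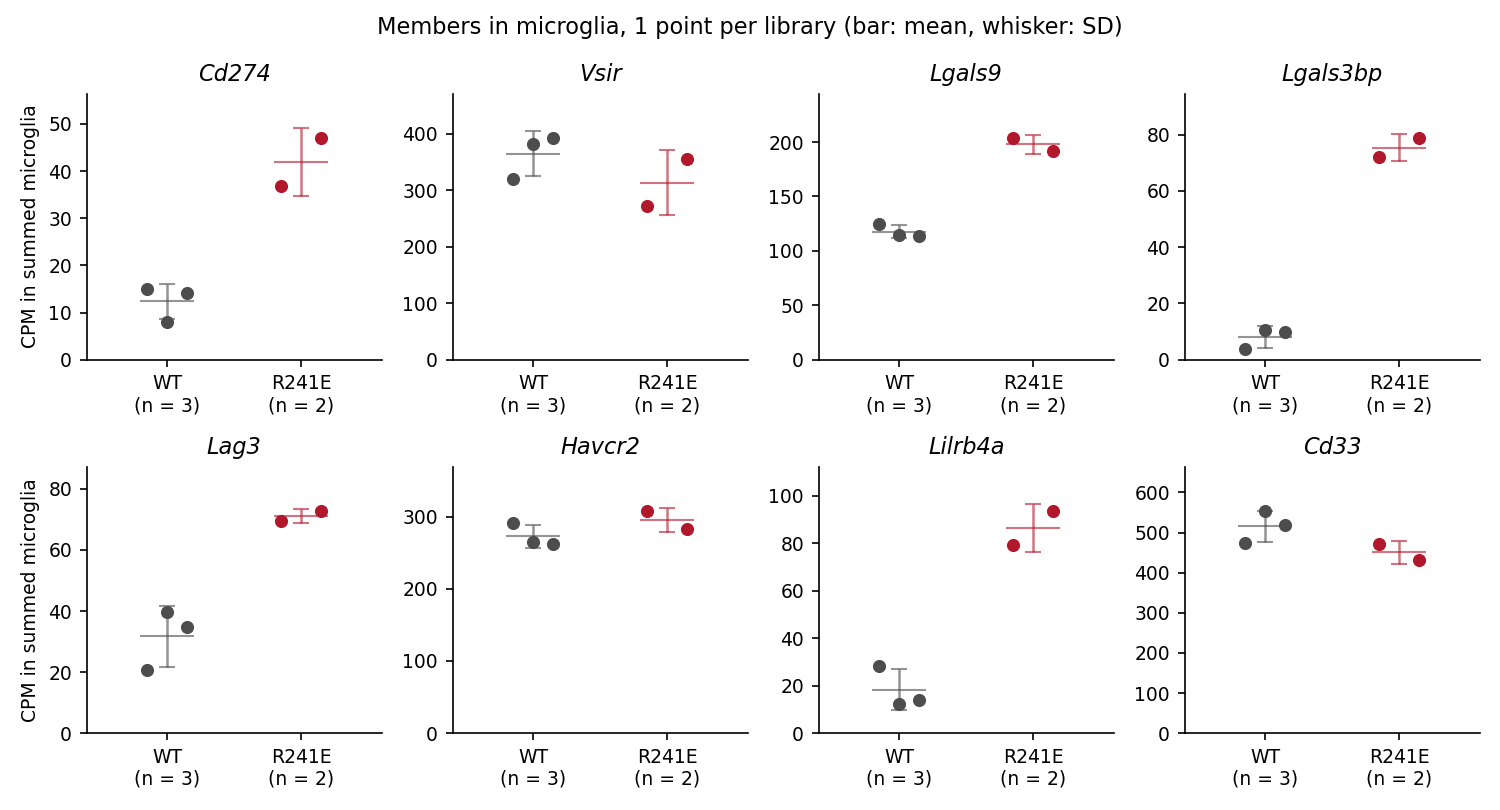
CPM of the 8 tested members in summed microglia, each point a library, with the mean as a bar and the SD as a whisker (3 WT, 2 R241E; axes start at 0). The points of Lgals3bp, Lilrb4a, Cd274, Lag3 and Lgals9 are apart between genotypes, while Havcr2 and Vsir overlap.

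Cd274 encodes PD-L1, the ligand through which myeloid and tumour cells engage PD-1 on T cells (chromosome 19, 29362107 to 29388095, GRCm38.p6). Its level in microglia was 36.7 and 47.0 CPM in the R241E libraries and 14.96, 8.07 and 14.1 CPM in the WT libraries. Both R241E libraries lay above every WT library, a log2 rise of 1.76 ± 0.24 (SE, edgeR adjusted p = 0.000125). Vsir (chromosome 10, 60346851 to 60430294), the other B7-family member, stood at 272 and 354 CPM in R241E against 319, 382 and 392 CPM in WT. Its groups overlapped, and the log2 difference of -0.25 (SE 0.12) did not pass the test (edgeR adjusted p = 0.251).

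Lgals3bp encodes a secreted glycoprotein that binds galectin-3 (chromosome 11, 118392747 to 118401959), and its difference was the largest of the members. Its level was 71.9 and 78.9 CPM in R241E microglia and 3.64, 10.6 and 9.89 CPM in WT microglia, an 8.61-fold difference (log2 fold change 3.11, SE 0.23, edgeR adjusted p = 2.3e-07). Lgals9 encodes galectin-9, a lectin described as a ligand of TIM-3 (chromosome 11, 78962979 to 78984924). It stood at 204 and 192 CPM in R241E against 125, 115 and 114 CPM in WT. The change was smaller but even across mice, a log2 fold change of 0.74 ± 0.10 (SE), at an edgeR adjusted p = 0.000159. Its promoter is the one with the ISRE core printed above, and a link between motif and rise was not tested.

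Of the T-cell checkpoint receptors, Lag3 rose and Havcr2 was not called. Lag3, a relative of CD4 that binds MHC class II (chromosome 6, 124904359 to 124912434), was at 69.4 and 72.6 CPM in R241E microglia, compared with 20.6, 39.7 and 34.8 CPM in WT microglia. The log2 fold change was 1.10 (SE 0.20, edgeR adjusted p = 0.00161). In cluster 5, Lag3 was at 123 CPM in pooled R241E and 118 CPM in pooled WT nuclei. That cluster held 281 of 1530 R241E but 104 of 3849 WT microglia. Lag3 was at 40.2 and 35.1 CPM in cluster 1, and at 59.5 and 42.8 CPM in cluster 2. In cluster 0 (78 R241E nuclei) it was at 84.8 and 28.7 CPM, and in cluster 8 (14 WT nuclei) at 58.9 and 0 CPM. The part of cluster make-up in the Lag3 difference was not tested. Havcr2 (chromosome 11, 46454931 to 46481255) was at 307 and 283 CPM in R241E against 291, 265 and 262 CPM in WT, with overlapping groups and a log2 difference of 0.10 (SE 0.10, edgeR adjusted p = 0.637).

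Of the receptors with ITIMs or related tails, Lilrb4a rose. It encodes a myeloid immunoglobulin-like receptor (chromosome 10, 51490898 to 51496613) and was at 79.2 and 93.4 CPM in R241E microglia, compared with 28.3, 12.5 and 14.1 CPM in WT microglia. The log2 fold change was 2.28 (SE 0.24, edgeR adjusted p = 8.7e-06). Lilr4b, a closely related copy, lies next to it (chromosome 10, 51480612 to 51486329), so reads could be split or lost between the 2 genes and both values are uncertain. Cd33 (chromosome 7, 43527399 to 43537424) stood at 471 and 430 CPM in R241E against 475, 553 and 518 CPM in WT. Every R241E value was below every WT value, but the log2 difference of -0.21 (SE 0.10) did not pass the test (edgeR adjusted p = 0.252). Klra2, an ITIM-bearing lectin-like receptor of the Ly49 family (chromosome 6, 131198970 to 131247716), was seen at 0 and 0.692 CPM in R241E against 0, 0.461 and 0.899 CPM in WT microglia.

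Markers of other classes in these summed microglia were checked by list. The 8 markers of border-associated macrophages, the class that holds the most Lilrb4a UMIs, summed to 98.3 and 143 CPM in R241E microglia. In every WT library they summed to at least 211 CPM. The 8 dendritic cell markers, 2 of them at 0, summed to 49.3 and 38.1 CPM in R241E and 20.2 to 24.9 CPM in WT, and the 8 markers of monocytes or neutrophils to 739 and 641 CPM against 560 to 578 CPM. The 14 lymphocyte markers summed to 32.7 and 14.5 CPM against 9.45 to 13.5 CPM. The part of these in the results was not tested.

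To separate the number of nuclei with a transcript from the amount per nucleus, every microglial nucleus was thinned to 1000 UMIs, at a cost of 9 and 26 shallower R241E nuclei and 23, 24 and 64 WT nuclei. A UMI of Lgals3bp was then found in 7.33% ± 0.999 (SD, n = 2) of R241E microglia and in 0.755% ± 0.674 (SD, n = 3) of WT microglia. For Lgals9 the shares were 18.2% ± 0.652 and 11.4% ± 0.916, for Lag3 6.52% ± 0.430 and 3.20% ± 1.04, for Cd274 3.91% ± 0.996 and 1.40% ± 0.704, and for Lilrb4a 3.21% ± 0.282 and 1.38% ± 0.444. In each of these 5 genes the libraries did not overlap, and the exact permutation test (two-sided) gave p = 0.1, the smallest that 2 against 3 libraries allow, or 0.15 adjusted over the 9 members. Cd33 went the other way, at 35.6% ± 0.968 of R241E nuclei and 40.5% ± 1.51 of WT nuclei (exact permutation p = 0.1), as did Vsir at 24.99% ± 2.43 and 30.2% ± 2.95 (exact permutation p = 0.2). The libraries of Cd33 and of Vsir did not overlap either. No share over all genes is given for this measure, so the lack of overlap is a description only. At 1000 UMIs Havcr2 overlapped, at 24.4% ± 1.58 and 23.5% ± 1.21. With nuclei thinned to 500 UMIs, Lgals9 overlapped as well, at 8.39% of R241E and 6.13% of WT nuclei (exact permutation p = 0.3), as did Cd33 and Vsir. Without thinning, the Cd33 shares were 67.4% and 67.1%, and those of Lilrb4a were 6.01% and 3.14% (exact permutation p = 0.2).

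Free RNA in droplets gives some UMIs in any nucleus. In oligodendrocytes thinned to the same 1000 UMIs, the shares with a UMI of a member ran from 0% to 1.36% over both genotypes. The microglial share of Klra2, 0.0803% of WT nuclei, lay within that background. The WT share of Lgals3bp in microglia, 0.856% of pooled nuclei, lay close to the 0.752% in WT astrocytes. The WT shares of Cd274 and Lilrb4a were both 1.31% of pooled microglia, against 0.362% and 0% in WT oligodendrocytes.

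The Lilrb4a transcripts were held by few nuclei. In R241E replicate 1, 18 of 1006 microglia had 3 or more Lilrb4a UMIs and together held 77.0% of the library's microglial Lilrb4a UMIs, and in R241E replicate 2, 8 of 524 held 84.4%. A single nucleus held up to 33 and 30 UMIs. In the WT libraries, 5, 3 and 3 nuclei reached 3 UMIs and held 48.6%, 18.5% and 29.8%. Without these nuclei the Lilrb4a level was 18.6 and 14.8 CPM in R241E and 14.7, 10.2 and 9.92 CPM in WT, values given as a description because the nuclei were chosen by the same transcript. The share of microglial Cd274 UMIs in nuclei with 3 or more was at most 38.2%, and that of Lgals3bp at most 24.5%.

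The 26 R241E nuclei with 3 or more Lilrb4a UMIs were marked by interferon-response genes. UMIs of the study's 28 interferon genes, none of them a member, made up 11998 CPM there and 3068 CPM in the other R241E microglia. Of these 26 nuclei, 23 lay in cluster 8, whose leading genes include Ifi204, Ifi207 and Oas2. Their microglial markers summed to 3966 CPM, against 8220 CPM in the other R241E microglia. Their border-associated macrophage markers summed to 244 CPM, against 110 CPM in the other R241E microglia. In R241E border-associated macrophages themselves these markers summed to 11486 and 12305 CPM. The part of macrophage transcripts in these nuclei was not tested. The 11 WT nuclei of that kind had interferon genes at 595 CPM.

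This was extended to every member by sorting microglia of each library by the interferon-gene UMIs they held in 1000 UMIs: none, 1 to 2, 3 to 5, or 6 and more. In R241E, 15.05% and 21.5% of microglia held none, and 15.3% and 13.5% held 6 or more. In WT, 67.2% to 70.3% held none and 4 to 6 nuclei per library held 6 or more, too few to read. Interferon-gene level and genotype thus came together, and the bins are described without a test.

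**Figure D3:**
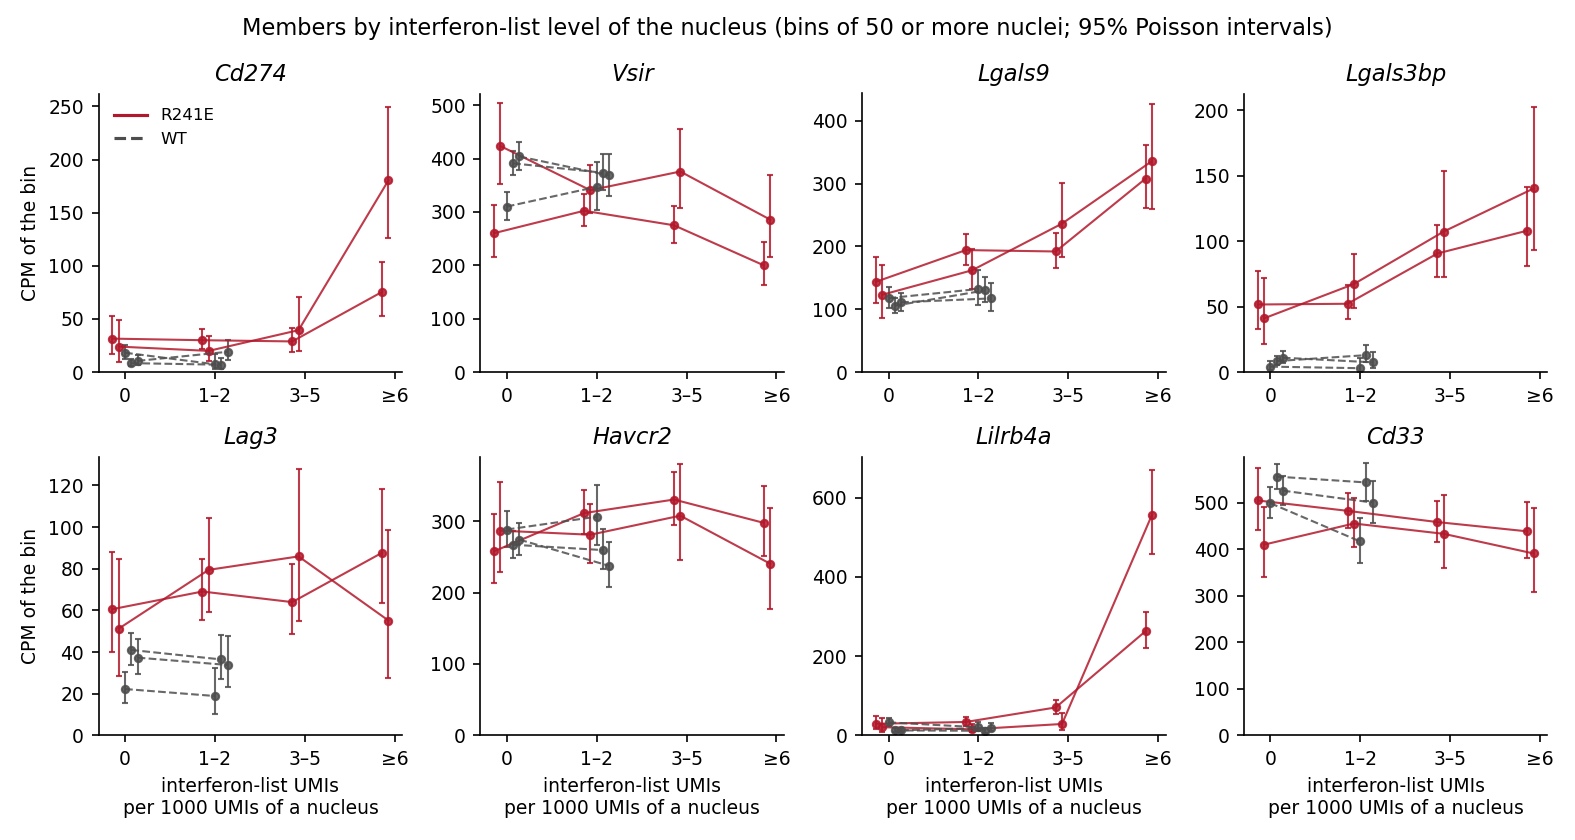
CPM of 8 members (y axis, from 0) in microglia binned by the UMIs of 28 interferon genes per 1000 UMIs of the nucleus (x axis), 1 line per library, R241E solid and WT dashed, with 95% Poisson intervals that cover counting error only; bins under 50 nuclei are left out. Cd274 and Lilrb4a climb in the last bin of both R241E libraries, Lgals3bp and Lgals9 climb over the bins, and Lgals3bp, Lag3, Cd274 and Lgals9 stand above all 3 WT libraries in the first bin.

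Among R241E microglia, Lilrb4a stood at 29.2 and 20.5 CPM in nuclei without an interferon-gene UMI and at 263 and 556 CPM in those with 6 or more. Cd274 stood at 31.4 and 23.9 CPM and at 75.5 and 180 CPM, and between 19.9 and 39.4 CPM in the bins between. Lgals9 went from 144 and 123 CPM to 308 and 336 CPM, and Lgals3bp from 51.6 and 41.0 CPM to 108 and 140 CPM. The CPM of these 4 genes was thus higher in the last bin than in the first in both mice. The share of nuclei with a Cd274 UMI, after thinning, did not follow in replicate 1, at 4.67% in the first bin and 3.92% in the last, while in replicate 2 it was 2.80% and 17.9%. Lag3 gave no such order, with 60.6 and 51.2 CPM in the first bin and 87.7 and 55.1 CPM in the last, and Havcr2 moved from 258 and 287 CPM to 298 and 240.6 CPM. Vsir stood at 260 and 424 CPM in the first bin and at 200 and 286 CPM in the last, and Cd33 at 505 and 410 CPM and at 438 and 391 CPM.

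The genotype difference was also fitted among nuclei without an interferon-gene UMI, in an alternative chosen after the data had been seen. Of the 5 called members, Lgals3bp alone was still called there, by 2.51 ± 0.40 on the log2 scale (SE, edgeR adjusted p = 0.00061), with 51.6 and 41.0 CPM in R241E against 4.10, 8.34 and 10.9 CPM in WT. Lilrb4a was at 0.46 (SE 0.51), Lgals9 at 0.25 (SE 0.17), Lag3 at 0.69 (SE 0.31) and Cd274 at 1.24 (SE 0.45), none of them called (edgeR adjusted p of 0.174 to 0.791). That comparison held 257 R241E nuclei, so its errors are larger, and 2.5% of its 11338 genes were called. A member not called there can still differ between genotypes, and no test compared the members with each other.

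Outside microglia, 9 tests of members were possible in 6 classes, and 2 passed. Both concerned transcripts at low levels, and neither was called by DESeq2 (adjusted p = 0.812 for Klra2, 0.131 for Lgals3bp) or limma-voom (0.36 and 0.235). In border-associated macrophages, Klra2 stood at 144 and 118 CPM in R241E against 39.2, 12.5 and 5.75 CPM in WT, a log2 rise of 2.82 ± 0.49 (SE, edgeR adjusted p = 0.00223). It rested on 71 UMIs. These came from 22 of 105 and 6 of 44 nuclei in R241E and from 4 of 54, 2 of 59 and 1 of 80 nuclei in WT. The call was lost without R241E replicate 1 (log2 fold change 2.62, edgeR adjusted p = 0.48) and without WT replicate 2 (2.62, 0.0863). In these macrophages 0.988% of 3946 genes were called. The summed interferon genes stood at 3240 and 3609 CPM in R241E and 2313, 927 and 1265 CPM in WT (their part in the result was not tested).

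The unnamed cluster, where Klra2 was highest, gave 691 and 532 CPM in R241E, and 802, 533 and 393 CPM in WT, so that the genotypes overlapped there. It was not tested, since it had 17 nuclei in WT replicate 1. Lilrb4a in border-associated macrophages was at 995 and 1093 CPM in R241E against 621, 865 and 903 CPM in WT, a log2 difference of 0.39 (SE 0.18) that was not called (edgeR adjusted p = 0.537). Lgals9 there was at 126 and 197 CPM against 65.3, 107 and 74.8 CPM (log2 difference 0.90, SE 0.34, edgeR adjusted p = 0.379), and Vsir and Cd33 were not called either.

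In astrocytes, Lgals3bp was at 60.0 and 43.7 CPM in R241E against 9.15, 3.82 and 11.5 CPM in WT, a log2 rise of 2.59 ± 0.44 (SE, edgeR adjusted p = 0.0368), in a class where 0.43% of 7904 genes were called. The call was lost without R241E replicate 1 (2.31, edgeR adjusted p = 0.781), WT replicate 2 (2.35, 0.216) or WT replicate 3 (2.94, 0.116). Microglial markers in these astrocytes summed to 252 and 360 CPM in R241E and 308, 424 and 524 CPM in WT, with overlapping groups. The interferon genes summed to 1143 and 1069 CPM against 698 to 857 CPM. The part of either in the result was not tested.

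Cd274 in neurons was at 59.4 and 70.1 CPM in R241E against 27.5, 92.8 and 96.1 CPM in WT (log2 difference -0.08, SE 0.48, edgeR adjusted p = 0.989), a level above that of microglia in all 5 libraries. Nearly all of it lay in a single neuronal cluster led by Reln, Cntnap2 and Kcnb2. There 115 nuclei (47.7%) had a Cd274 UMI, against 6 of the 504 other neuronal nuclei. The level in that cluster was 127 and 215 CPM in R241E and 172, 182 and 175 CPM in WT. The low neuronal value of WT replicate 1 went with a low share of that cluster among its neurons, 17.4% against 30.4% to 47.0% in the other libraries. Neither Cd274 nor the other 2 members tested in neurons, Vsir and Cd33, passed (0 at an unadjusted p under 0.05 as well), and 0.0113% of 8884 genes did. No member passed the filter on low counts in fibroblasts, mural cells or oligodendrocytes, where 0.0172%, 0% and 0.285% of the genes tested were called.

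**Figure D4:**
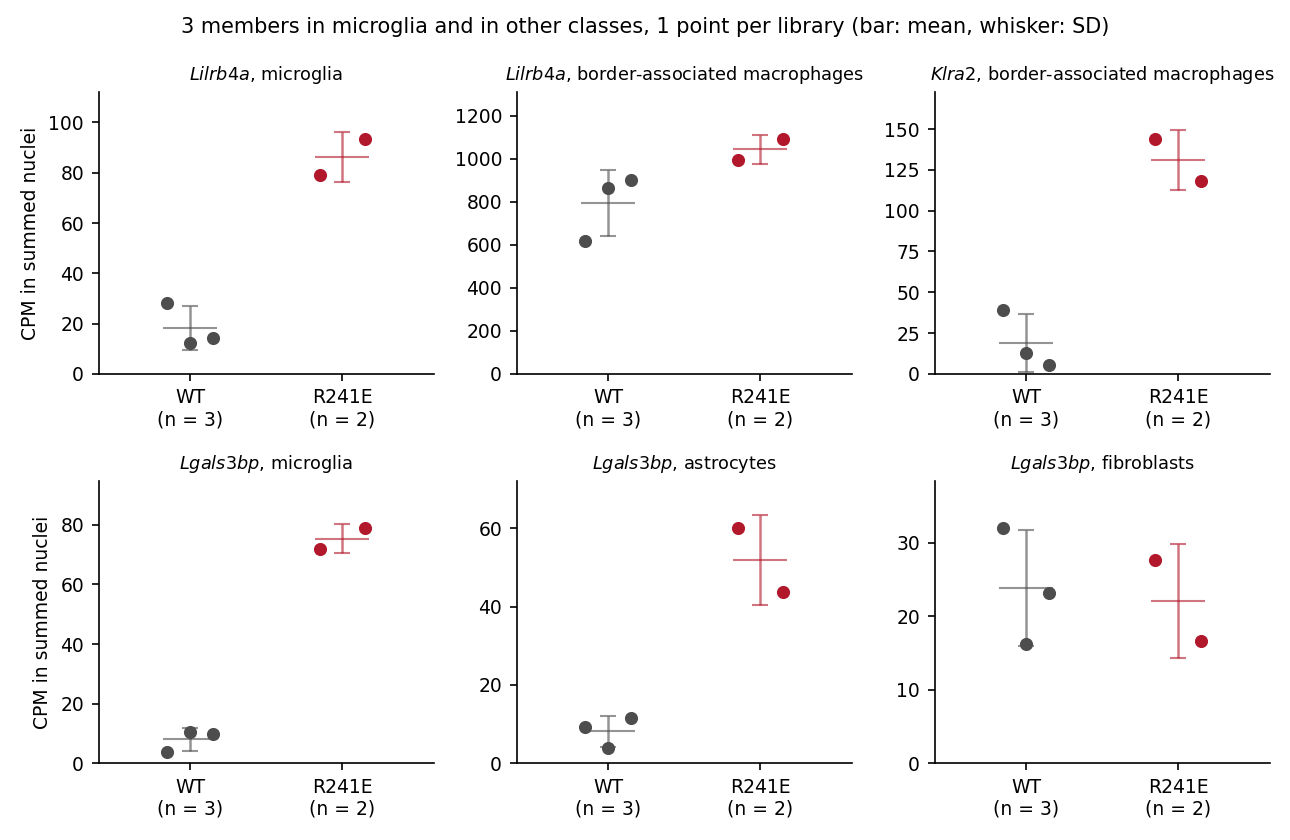
CPM of Lilrb4a, Klra2 and Lgals3bp in summed nuclei of the class named above each panel, 1 point per library with the mean as a bar and the SD as a whisker (3 WT, 2 R241E; axes start at 0 and differ between panels). Lilrb4a in border-associated macrophages lies above its microglial level in every library, and Lgals3bp is higher in R241E in microglia and astrocytes but overlaps in fibroblasts.

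Whether the genotype difference itself differed between microglia and another class was tested with a class by genotype term, in which the 2 classes of a mouse were kept together. Of 49 such tests of members, 2 passed. The difference of Lilrb4a was larger in microglia than in border-associated macrophages by 1.85 on the log2 scale (SE 0.22, edgeR adjusted p = 6.3e-14), and it was called with each of the 5 libraries left out in turn as well. The difference of Lgals3bp was larger in microglia than in fibroblasts by 2.86 (SE 0.66, edgeR adjusted p = 0.00303). In fibroblasts it stood at 27.6 and 16.6 CPM in R241E against 32.0, 16.3 and 23.2 CPM in WT. This call was lost without R241E replicate 2 (2.48, edgeR adjusted p = 0.0787), WT replicate 1 (2.54, 0.104) or WT replicate 3 (2.89, 0.0752). Between microglia and astrocytes, the difference of Lgals3bp was 0.49 (SE 0.60) and not called. The background share of genes called was 0.756% against astrocytes, 0.788% against border-associated macrophages, 1% against fibroblasts, 0.334% against mural cells, 0.2% against neurons and 0.72% against oligodendrocytes.

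The wider pathway was followed in microglia through lists of inhibitory receptors, inhibitory ligands, binding partners of the members, ITIM signalling genes and the members' own families. Of 103 such genes in the files, 63 were tested, and 20 were higher and 6 lower in R241E, 41.3% against the 9.29% of all genes. These lists, too, were chosen with earlier results of these data known. Of the 20 other inhibitory receptors tested, 5 were higher and 2 lower, and of the 15 other inhibitory ligands 5 were higher and 1 lower. Of 11 binding partners 3 were higher and 1 lower, and of 12 ITIM signalling genes 4 were higher. The median log2 fold change over the 63 genes was 0.16. Without R241E replicate 1 the called genes numbered 12, and 16 after thinning, each of them among the 26.

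**Figure D5:**
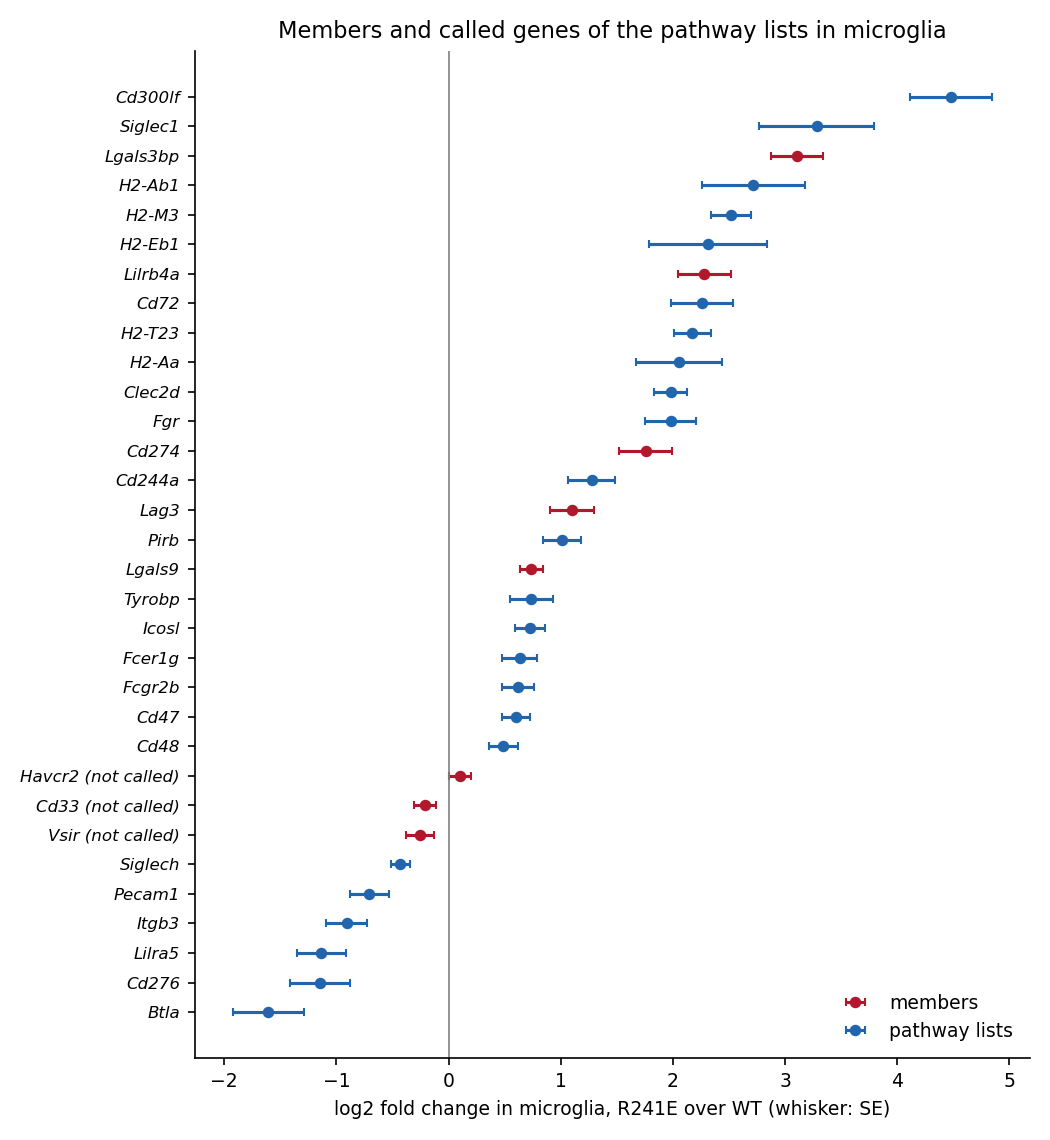
Log2 fold change (R241E over WT, x axis, whisker SE) in microglia of the 8 tested members and of 24 of the 25 called genes of the pathway lists with the smallest adjusted p, sorted from the highest to the lowest. Havcr2, Cd33 and Vsir, the members that were not called, lie near 0, and 6 list genes lie to the left.

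Among ligands, the non-classical MHC class I genes H2-M3 and H2-T23, the second of which encodes Qa-1, the ligand of the inhibitory receptor NKG2A, rose together. H2-T23 was at 119 and 120 CPM in R241E and 19.4 to 33.9 CPM in WT (log2 fold change 2.17, SE 0.16), and H2-M3 at 60.0 and 59.5 CPM against 8.99 to 12.6 CPM (2.52, SE 0.18). Clec2d, a lectin-like ligand of NK cell receptors, was at 151 and 162 CPM against 28.3 to 45.3 CPM in WT (1.98, SE 0.15). On the log2 scale, Cd47, the ligand of SIRPα, and Cd48 rose by 0.60 and 0.49, and Icosl, a B7-family ligand of the costimulatory receptor ICOS, rose by 0.72. Cd276, which encodes the B7 family's B7-H3, fell by 1.15 on the log2 scale. Within the B7 family, then, Cd274 and Icosl rose, Cd276 fell, and 3 further members of 6 tested were not called.

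Among receptors, Cd300lf went from at most 4.45 CPM in WT to 62.5 and 33.2 CPM in R241E, with the largest log2 fold change of the lists, 4.48 (SE 0.36). Cd72 (2.26), Cd244a (1.28), Pirb (1.01) and Fcgr2b, the inhibitory Fc receptor (0.62), also rose. Btla, a checkpoint receptor, fell by 1.61 on the log2 scale, and Pecam1 fell by 0.71. All 4 tested genes of the family of Lilrb4a were called: Lilrb4a, Pirb and Lilr4b (0.75, the neighbouring copy) rose, and Lilra5 fell by 1.13. In the Siglec family, Siglec1 rose by 3.28 (SE 0.51) at under 8 CPM and Siglech, a microglial marker, fell by 0.43, while Cd33 and the 5 others tested were not called.

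Of the partners, the MHC class II genes that LAG-3 binds were higher in R241E: H2-Ab1 by 2.72, H2-Aa by 2.05 and H2-Eb1 by 2.31, at no more than 13.8 CPM in any library. These 3 genes also lead the unnamed cluster, and H2-Aa and H2-Eb1 are among the dendritic cell markers whose sum was given above. Itgb3 fell by 0.91. Among the called ITIM signalling genes were the kinase gene Fgr (1.98) and the adaptor genes Fcer1g (0.64) and Tyrobp (0.74). The adaptors Fcer1g and Tyrobp carry activating rather than inhibitory motifs. Of the TIM family, Havcr2 was the single gene that passed the filter, and of the Klra family none did. The galectin list, in which Lgals3bp stands as a galectin-binding protein rather than a galectin, had 7 tested genes, and Lgals9 was the single galectin among them that was called.

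Genes whose level ran most like that of a member were looked up over the 35 sums of 7 classes and 5 libraries, points that share libraries and classes. Cd33 ran with Csf1r, Myo1f and Cyth4 (Pearson r of 0.974, 0.967 and 0.964), Vsir with Entpd1, Lair1 and Dapp1 (0.954, 0.947 and 0.926) and Lgals9 with Il6ra, Piezo1 and Rhobtb1 (0.914, 0.904 and 0.903). Havcr2 ran with Gm2629, Selplg and F11r (0.889, 0.886 and 0.883). Lilrb4a ran with its neighbour Lilr4b, Ctla2b and Asgr2 (0.945, 0.945 and 0.943). Likeness was weaker for Lag3, led by 2310040G24Rik, Slc35c2 and Slamf6 (0.796, 0.773 and 0.770), for Cd274, led by Gm36043, Mtus2 and Pkib (0.755, 0.720 and 0.720), and for Lgals3bp, led by Ifit1, Tnfrsf1a and Zbtb7b (0.730, 0.729 and 0.718). Among these 24 genes, those called higher in R241E microglia were Gm36043, Pkib, Slamf6, Ifit1, Lilr4b, Ctla2b and Myo1f.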

How the data were processed

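snRNA-seq of sorted nuclei (10x Genomics 3′ chemistry) was available for 5 mouse libraries, 2 R241E and 3 WT, grouped by the sample titles. The deposited values are UMI counts per gene and nucleus, made by the authors with Cell Ranger (7.0.0 per the file headers) on mm10, with Seurat also named in the submitters' processing notes; nothing was normalized in them. The members and gene lists were chosen with earlier results of these data known. Every column of the files was matched to a sample.

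Filters after the study's methods (from 200 to under 4500 genes, under 10000 UMIs, mitochondrial share under 5%) left 9505 of 9748 nuclei. With scanpy 1.11.5 and Python 3.11.15, 3000 variable genes, 30 principal components and 20 neighbours gave Leiden clusters at resolution 1. A cluster was named when at least 3 markers of a class were detected (in 10% of its nuclei) with a mean log2 fold of 2, a scoring rule set after the clusters had been seen. Scrublet called 42 nuclei (0.442%), too few to rely on, so none was removed, and the top 156 scores were left out in an alternative.

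UMI counts of each class were added up within a library, in the 7 classes with 20 nuclei in every library, and tested with edgeR 4.0.16 (R 4.3.3; TMM, filterByExpr, quasi-likelihood, genotype as the single term, Benjamini-Hochberg over all genes tested in the class, adjusted p under 0.05 called). The study's single-nucleus test was not used, because nuclei of a mouse are not replicates. The class by genotype term was fitted with mouse as a block. Shares of nuclei with a UMI were compared after thinning to 1000 UMIs by an exact permutation test. Intervals on levels are exact Poisson at 95% and cover counting error only. The limit for a count of 0 was 3 UMIs. The alternatives were DESeq2 1.42.0, limma-voom 3.58.1, RLE size factors, no filter on low counts, a replicate block, each library left out, Scrublet scores, no upper limits on nuclei, thinning and Leiden resolution 0.5. On simulated data, the microglial fit recovered 78% of 200 genes changed 2-fold among 12728, with 8 false calls.

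Named were all 9 members, up to 25 called genes of the pathway lists by adjusted p whose libraries did not overlap between genotypes, and the 3 genes most correlated with each member over the sums. An item of these lists is not reported here. Lilr4b was named besides, after its values were seen. Genes with near-identical copies (Lilrb4a and Lilr4b, the Klra and H2 families) are uncertain, since reads can be split or lost between copies. Promoters came from RefSeq (GRCm38.p6).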

Additional observations from a re-analysis of the deposited data

Results flagged for a closer look

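The genotype difference of Lilrb4a was larger in microglia than in border-associated macrophages by 1.85 on the log2 scale (SE 0.22, edgeR adjusted p = 6.3e-14), and this difference between classes was what singled it out. With each library left out in turn it ranged from 1.57 to 2.40. Lilrb4a was at 12.5 to 28.3 CPM in WT microglia and at 621 to 903 CPM in WT border-associated macrophages. Few nuclei held much of the microglial Lilrb4a: 26 of 1530 R241E microglia, those with 3 or more Lilrb4a UMIs, held 79.6% of the Lilrb4a UMIs. In WT, 11 of 3849 microglia reached 3 and held 33.9%. Without such nuclei, which were chosen by the same transcript, the level was 18.6 and 14.8 CPM in R241E and 14.7, 10.2 and 9.92 CPM in WT.

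The genotype difference of Lgals3bp was larger in microglia than in fibroblasts by 2.86 (SE 0.66, edgeR adjusted p = 0.00303), but the call was lost when R241E replicate 2, WT replicate 1 or WT replicate 3 was left out.

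Lgals3bp was also read in T or NK lymphocytes, a class too small in WT to test. Its pooled level there was 136 CPM in R241E, from 52 UMIs in 41 of 155 nuclei, at 133 and 147 CPM in the R241E libraries. No UMI was found in 38 WT nuclei, where 3 UMIs over the group would be 40.03 CPM. The pooled R241E level was 3.40 times that WT limit, a ratio that leaves out counting error in the R241E count. The limit covers counting error only, not the spread between mice, and 28 of those WT nuclei came from WT replicate 3. In WT replicate 1 or WT replicate 2 alone, 3 UMIs would lie above the R241E level, so neither shows a difference.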

How the results depend on the processing

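The 5 members called in microglia were called under all 14 alternatives planned, with log2 fold changes of 1.49 to 1.95 for Cd274, 0.90 to 1.32 for Lag3, 0.64 to 0.78 for Lgals9, 2.84 to 3.38 for Lgals3bp and 2.03 to 2.67 for Lilrb4a. Among nuclei with no interferon-gene UMI, an alternative chosen after seeing the data, 1 member was called, and the log2 difference of Havcr2 turned to -0.0576 (adjusted p = 0.921); fewer nuclei entered, and the cause was not tested. The wider lists gave 16 called genes with nuclei thinned to 1000 UMIs against 26, and 12 to 27 with a library left out, the lowest without R241E replicate 1; DESeq2 gave 20. Among the 25 named list genes, 39 of 344 values in the alternatives lost the call, for 16 genes, and none reversed. In other classes, the count of 2 members called became 0 with DESeq2, with limma-voom and with thinned nuclei, and 0 to 2 with a library left out. The count of 2 class by genotype differences became 1 to 5 with a library left out. It was 5 without WT replicate 1, and 1 of these was among the 2. Differences in shares of nuclei (R241E minus WT, percentage points) reversed for Klra2, to -0.0227 at 500 UMIs and -0.0188 without thinning, and for Cd33, to 0.311 without thinning; with a library left out they ran from -0.0701 to 0.131 for Klra2 and from -0.254 to 1.98 for Havcr2. Mouse numbers are shared between the genotypes but were not found to pair them: the deviations of same-numbered mice correlated at 0.0992 and -0.0179. With the replicate block, 5 members were called in microglia, 33 genes of the wider lists (25 of them among the 26) and 2 members in other classes, and it changed no call of a member. Depth limits the low members: Klra2 had 6 UMIs in microglia, and 2 against 3 libraries cannot give an exact p below 0.1.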
